A study of Mus musculus with 19 samples.

Results

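The data described here are the total transcript levels of mouse morulae whose mothers had lost Eed in the oocyte. The members were the 4 morula RNA-seq libraries among the 19 samples of the series, chosen by stage and genotype in the labels. They were 2 control libraries (controls 1 and 2), whose mothers were Eed-fl/fl, and 2 maternal knockout libraries (matKO 1 and 2), whose mothers were Eed-fl/fl with the Gdf9-Cre transgene. All fathers were wild type, and the strain label of every library was B6/129 x PWK. The controls thus carry the floxed allele as well, and the matKO embryos receive a normal paternal Eed. Gdf9-Cre is active in growing oocytes, so the deletion precedes fertilisation. Whole embryos were lysed for cDNA, and how many embryos, mothers or litters each library holds is not given, nor is embryo sex. The p-values below therefore measure only the spread between these libraries, which may be technical. With 2 libraries against 2, an exact two-sided permutation test of a single value cannot give a p below 0.3333.

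Eed is a core subunit of Polycomb repressive complex 2 (PRC2), which places the repressive mark H3K27me3 on histone H3. In the mouse, H3K27me3 laid down in the oocyte keeps the maternal copies of a group of imprinted genes silent, and it keeps the maternal copy of Xist silent in early embryos. Xist is the noncoding RNA that silences the X chromosome from which it is made, and it is normally made from the paternal X in cells of the female morula. Other samples of the same study were extra-embryonic ectoderm (ExE), the trophoblast tissue beside the epiblast, at embryonic day 6.5. Values of 13 ExE libraries (4 control, 9 matKO) are used below only where they bear on a gene found in morulae.

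Levels are RPKM (reads per kilobase of transcript, scaled to the mapped reads of the library), as the authors deposited them for 22521 genes. A gene was tested when its mean over the 4 libraries reached 1 RPKM, which left 10329 genes, and differences are matKO minus control in log2(RPKM + 1) with limma's standard error (SE). In these units the fold change of a low gene is understated. The libraries listed 15918 to 16321 genes above 0, and the read depth behind the RPKM is unknown. The allelic table held 3327373 to 5109159 reads per library that could be given to a parent. All 10 morula markers passed the filter, among them Pou5f1, a pluripotency factor, at 62.7 and 69.4 RPKM in controls and 94.5 and 67.5 RPKM in matKO. Of markers of cells that could cling to embryos, 2 of 16 cumulus and granulosa genes passed, with summed levels of 9.5 and 13.1 RPKM in controls against 9.7 and 15.04 RPKM in matKO. Of oviduct and blood genes 3 of 13 passed, with sums of 11.7 and 24.8 RPKM against 13.3 and 30.3 RPKM. Fshr, Has2, Col3a1 and Lum of the former list and Hbb-b1, Hbb-b2 and Pax8 of the latter were at 0 in every morula library. In whole-embryo libraries, fewer cells of a type and less RNA per cell cannot be told apart.

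No gene passed the limma test, with genotype as its only term, at an adjusted p under 0.05 (0 of 10329, 0%). In simulated morula data this test found 4% of genes changed by 1 log2, so it would miss most changes of that size. At an unadjusted p under 0.05 limma counted 92 genes (0.891%), 45 higher (0.436%) and 47 lower (0.455%) in matKO. That is under the share of 0.05 that this threshold would count if no gene differed. Differences are therefore described below by whether the libraries overlap. In 1066 genes (10.3%) both matKO libraries lay above both controls, and in 910 genes (8.81%) both lay below. If no gene differed and the libraries were independent, a share of 0.3333 would not overlap in one direction or the other. The counts of non-overlapping genes together stay under that share. With a difference of at least 1 log2 as well, 45 genes (0.436%) were higher and 36 genes (0.349%) were lower, 81 in all (0.784%). Leaving out a library makes it easier for groups not to overlap, and the 81 became 458 without control 1, 825 without control 2, 406 without matKO 1 and 220 without matKO 2, while limma then called 6, 16, 1 and 2 genes. With a pseudocount of 0.1 in place of 1 the 81 became 213. The authors' deposited table of changed morula genes lists 178 genes as higher and 270 as lower. Every gene in the authors' deposited table had group means at least 2-fold apart, and the control and matKO libraries did not overlap for 119 and 148 of them.

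The 4 libraries differed in more than genotype. Control 1 stood highest for oocyte and maternal-effect transcripts and lowest for trophectoderm genes, and control 2 was at the opposite end for both lists. The list medians, as deviations from the mean of the 4 libraries, were 0.52 and -0.38 log2 units in the controls and 0.12 and -0.29 in matKO for the oocyte list (24 genes). For the trophectoderm list (28 genes) they were -0.55 and 0.69 in controls and -0.47 and 0.22 in matKO. The matKO libraries fell between the controls in both lists. Same-numbered libraries lay on the same side of the mean of the 4 libraries in both, though no label says that the numbers mark a shared batch. The part of these shifts in the gene results below was not tested.

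**Figure D1:**
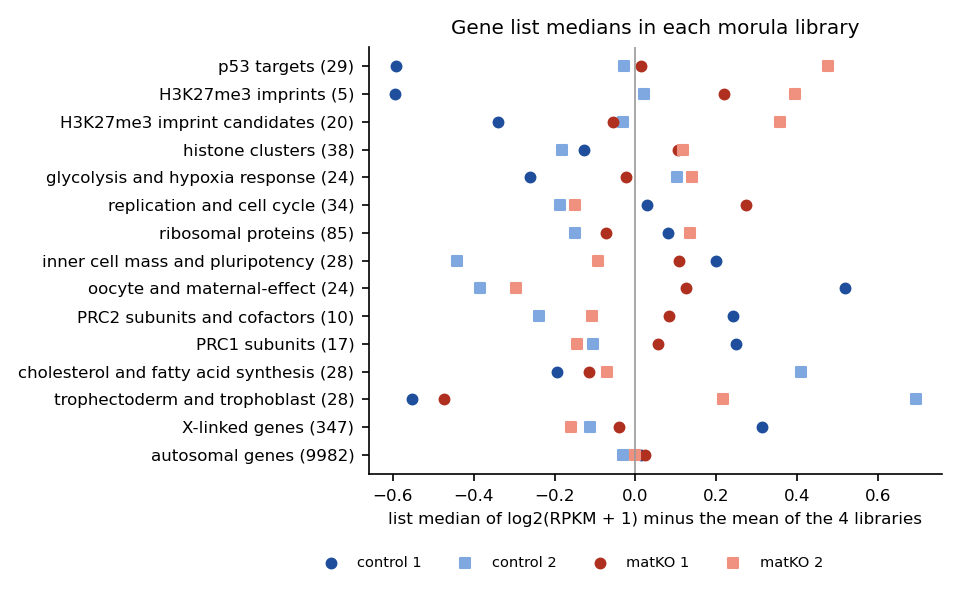
Median over each gene list (number of tested genes in brackets) of log2(RPKM + 1) minus the mean of the 4 libraries, on the horizontal axis, with a point per morula library. The p53 target, H3K27me3 imprint and histone lists have both matKO points above both controls, while the trophectoderm, oocyte and X-linked lists have overlapping points.

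Total RNA of the targeted gene in matKO lay between the controls. Eed stood at 178 and 94.3 RPKM in controls and at 145 and 138 RPKM in matKO. The difference was 0.13 ± 0.40 (SE, limma unadjusted p = 0.765). Maternal Eed reads numbered 200 and 148 in controls and 54 and 85 in matKO, while paternal reads numbered 331 and 174 in controls and 283 and 321 in matKO. Reads from parts of the transcript outside the deleted segment can remain, so the total level does not check the deletion. Ezh2, the methyltransferase of PRC2, had 114 and 65.8 RPKM against 89.9 and 64.8 RPKM, and Suz12, its scaffold, had 126 and 81.0 RPKM against 104 and 89.8 RPKM. Of 10 tested PRC2 genes 1 had non-overlapping lower libraries (10%, near the 8.81% of all genes), the cofactor Jarid2, at 64.5 and 68.0 RPKM in controls and 52.1 and 63.6 RPKM in matKO. The list median was -0.06, beside 0.02 over all genes tested.

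The X chromosome held more of the differing genes than any autosome. Of 347 X-linked genes tested, 28 were in the set of 81 (8.07%), 9 higher and 19 lower, while the autosomes held 53 of 9982 (0.531%) and no single autosome exceeded 1.48%. Counting differences of any size, 98 X-linked genes had non-overlapping lower libraries (28.2%, against 8.13% of autosomal genes) and 27 had higher ones (7.78%, against 10.4%). The median of X-linked genes was -0.21 against medians of -0.01 to 0.07 for single autosomes. Most of the shift in the median came from control 1. The X-linked median deviated by 0.31 log2 units in control 1 and by -0.11 in control 2, and by -0.04 and -0.16 in matKO 1 and 2. Control 2 thus lay between the matKO libraries, and without control 1 the X-linked median difference was 0.0056. Of the 347 genes, 270 were lower in matKO 1 than in control 1 (4926 of 9982 autosomal genes). In matKO 2 against control 2, 183 were lower (4458 of 9982 autosomal genes). The count of 28 was 55 (25 higher, 30 lower) without control 1, 88 without control 2, 43 without matKO 1 and 39 without matKO 2. All 13 listed Y-linked genes were at 0 in every library, so the sex make-up could not be read from them, and its part in the X-linked results was not tested.

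**Figure D2:**
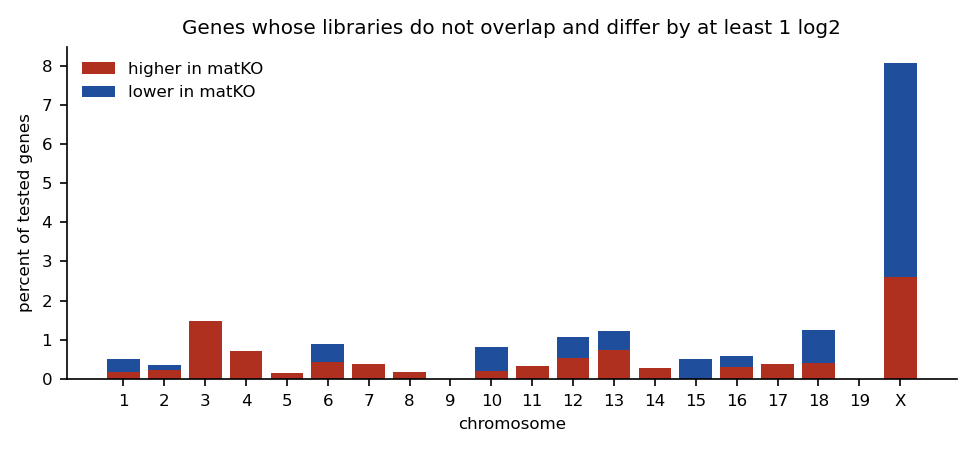
Percent of the tested genes of each chromosome (horizontal axis) whose control and matKO libraries do not overlap and differ by at least 1 log2, split into higher (red) and lower (blue) in matKO. The X stands at 8.07%, and no autosome exceeds 1.48%.

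Of the 91 tested genes in the first 40 Mb of the X (mm9 coordinates of the deposited tables), none of the 19 strongly lower genes was found and the median difference was -0.04. The 93 genes from 40 to 80 Mb had a median of -0.35 and held 10 of the 19, the 68 genes from 80 to 120 Mb had a median of -0.31 and held 5, and the 95 genes beyond had a median of -0.30 and held 4. These windows were drawn after the values were seen, and the difference between them was not tested.

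Xist was higher in both matKO libraries. Its levels were 37.8 and 24.02 RPKM in controls and 47.5 and 73.2 RPKM in matKO, without overlap, a difference of 0.95 ± 0.40 (SE, limma unadjusted p = 0.0574), or 0.63 without control 2. Maternal Xist reads numbered 504 and 1249 in controls and 2412 and 4253 in matKO, or 130 and 280 against 725 and 832 RPM (reads per 1000000 allelic reads of the library). Paternal Xist reads numbered 1815 and 796 in controls and 678 and 1760 in matKO, which is 469 and 179 against 204 and 344 RPM. Maternal reads did not overlap between the groups, and paternal reads did. The maternal percentage of Xist was 21.7% (95% Wilson interval 20.1 to 23.5) and 61.1% (58.9 to 63.2) in controls and 78.1% (76.6 to 79.5) and 70.7% (69.6 to 71.9) in matKO. The edgeR test of the maternal to paternal ratio gave an unadjusted p of 0.0163 and an adjusted p of 1.0, in a comparison in which 2 of 7872 genes (0.0254%) were called and 314 (3.99%) had an unadjusted p under 0.05. Wilson intervals cover counting error only, since the reads carry no molecular identifiers. Tsix, which is transcribed across Xist on the other strand, was also higher, at 45.5 and 43.2 RPKM against 62.7 and 140 RPKM. No use of strand in the counting is given in the sources used here, so reads where the pair overlap cannot be told apart. B230206F22Rik, a noncoding transcript listed near Xist, had 1.28 and 2.56 RPKM in controls and 3.74 and 7.67 RPKM in matKO, also without overlap.

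Rlim, the X-linked ubiquitin ligase that acts on the Xist repressor Rex1, had the largest difference in log2(RPKM + 1) of the 19 lower X-linked genes. On the log2 ratio of the authors' deposited table it stood at -2.35, and genes of lower level such as Tmsb15b1 (-2.64) and Xlr5c (-2.42) differed more. It had 27.2 and 10.9 RPKM in controls and 5.32 and 2.02 RPKM in matKO. All matKO values were under both controls, a difference of -2.07 ± 0.57 (SE, limma unadjusted p = 0.0119). Maternal Rlim reads numbered 497 and 295 in controls and 60 and 48 in matKO, which is 128 and 66.2 against 18.03 and 9.39 RPM. Paternal Rlim reads were few in every library, 30 and 2 in controls and 26 and 12 in matKO, and the groups overlapped. The edgeR test of the ratio had an unadjusted p of 0.00298 and an adjusted p of 0.729. In ExE, Rlim had 30.1 ± 0.884 RPKM (SD, n = 4) in controls and 31.4 ± 4.09 RPKM (SD, n = 9) in matKO.

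The lower X-linked genes as a group, Rlim included, had the same allelic pattern. Of the 19, 15 had allelic reads, and in 13 of these both matKO libraries had fewer maternal RPM than both controls. Summed over the 15, maternal reads stood at 351 and 328 RPM in controls and at 79.6 and 58.5 RPM in matKO. Rlim gave 128 and 66.2 RPM of the control sums and 18.03 and 9.39 RPM of the matKO sums. Paternal reads of the 15 stood at 86.8 and 17.3 RPM in controls and 66.1 and 38.0 RPM in matKO, and overlapped. These reads come from the libraries that chose the genes, so they describe the set and test nothing. Over all 370 X-linked genes with allelic reads other than Xist and Tsix, the gap was much smaller. Maternal reads were 19568 and 17874 RPM in controls and 16457 and 14916 RPM in matKO. Paternal reads were 10109 and 2809 RPM in controls and 7848 and 7585 RPM in matKO, with control 2 far below the other 3 libraries.

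**Figure D3:**
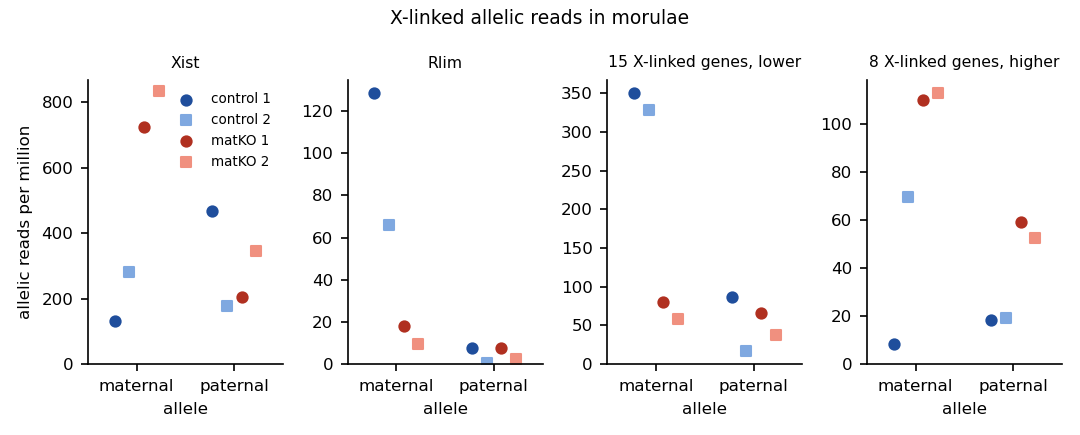
Allelic reads in RPM (vertical axes, from 0, separate scale per panel) on the maternal and paternal allele, with a point per library, for Xist, Rlim and the summed X-linked genes that were lower (15) or higher (8) in matKO. Maternal Xist reads are 130 and 280 in controls against 725 and 832 in matKO, and summed maternal reads of the 15 lower genes are 351 and 328 against 79.6 and 58.5.

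Among the other lower X-linked genes, Hmgn5, a nucleosome-binding protein, had 25.0 and 22.6 RPKM in controls and 9.91 and 8.09 RPKM in matKO, a difference of -1.31 ± 0.31 (SE, limma unadjusted p = 0.00584). Ccdc160, a coiled-coil protein, had 7.62 and 9.17 RPKM in controls and 1.37 and 2.67 RPKM in matKO. Pls3, which bundles actin, had 12.96 and 15.9 RPKM in controls and 5.01 and 5.58 RPKM in matKO. In each of these 3 genes the controls were close together and both matKO libraries lay below both. Tspan6, a tetraspanin, had 8.75 and 8.81 RPKM against 3.29 and 1.55 RPKM. Mageb16, of the MAGE family, had 5.72 and 5.98 RPKM against 2.70 and 1.93 RPKM. The differences of Ccdc160, Pls3, Tspan6 and Mageb16 were -1.67, -1.29, -1.57 and -1.06. 3 members of the Xlr family, neighbours near 70 Mb of the X, were in the set. Xlr4b had 6.98 and 12.01 RPKM in controls and 2.06 and 4.49 RPKM in matKO, Xlr4c had 7.503 and 8.82 RPKM against 1.87 and 3.65 RPKM, and Xlr5c had 1.57 and 2.74 RPKM against 0.489 and 0.155 RPKM. Xlr genes are near-identical copies among which reads can be split, so the values of single members are uncertain.

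Of the 19 lower X-linked genes 13 were tested in ExE, 12 had a negative log2 difference in matKO (median of the 13, -0.66), as had 223 of the 359 X-linked genes tested there. Haus7 counts among the 12 at -0.00034. In 4 of the 13 all 9 matKO libraries lay below all 4 controls, where 1.38% of the 9915 genes tested in ExE and 6.41% of the X-linked ones did so. The 4 were Pir, Pls3, Tmsb15b1 and Xlr4c. Pir, a nuclear iron-binding protein, had 1.63 and 3.32 RPKM in control and 0.533 and 0.563 RPKM in matKO morulae, and 8.15 ± 2.17 RPKM (SD, n = 4) in control and 2.605 ± 1.39 RPKM (SD, n = 9) in matKO ExE. Xlr4c had 22.9 ± 4.06 RPKM (SD, n = 4) in control and 8.73 ± 4.53 RPKM (SD, n = 9) in matKO ExE. Pls3 had 8.55 ± 0.896 RPKM and 4.69 ± 1.44 RPKM, and Tmsb15b1, a thymosin, had 45.7 ± 12.01 RPKM and 19.98 ± 6.58 RPKM. None of the 4 passed limma in ExE, where 5 genes (0.0504%) were called and the adjusted p of these 4 ran from 0.0764 to 0.124.

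Some genes of a neighbouring group on the X were higher in both matKO libraries. Tceal8, of the TCEAL family of small transcription elongation factor-like proteins, had 8.75 and 3.93 RPKM in controls and 37.9 and 39.4 RPKM in matKO. The groups were far apart, with a difference of 2.51 ± 0.41 (SE, limma unadjusted p = 0.00115). Its maternal reads numbered 5 in each control and 53 and 78 in matKO, and its paternal reads 3 in each control and 6 and 14 in matKO. Wbp5, of the same family, had 11.3 and 58.4 RPKM in controls and 65.6 and 119 RPKM in matKO, so that control 2 came close to matKO 1. Bex2, of the adjoining BEX family, had 3.14 and 3.12 RPKM in controls and 7.10 and 7.42 RPKM in matKO, a difference of 0.999 ± 0.29 (SE, limma unadjusted p = 0.0147). Among their neighbours, Bex4 had 16.6 and 6.77 RPKM against 18.7 and 17.5 RPKM, Bex1 had 146 and 28.5 RPKM against 129 and 56.0 RPKM with overlap, and Tceal7 was under the filter at 2.86 and 0.142 RPKM against 0.108 and 0.136 RPKM. Wbp5 and these 3 were chosen after their values were seen. In ExE, Tceal8 had 23.9 ± 12.3 RPKM (SD, n = 4) in controls and 11.9 ± 6.64 RPKM (SD, n = 9) in matKO, with overlap.

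Other X-linked genes higher in matKO included Tex13, a testis-expressed gene, with 2.77 and 2.17 RPKM in controls and 9.57 and 6.61 RPKM in matKO (difference 1.37 ± 0.33, SE, limma unadjusted p = 0.00673). The reproductive homeobox gene Rhox9 had 16.9 and 28.0 RPKM in controls and 119 and 35.4 RPKM in matKO, and Rhox6 had 1.14 and 2.80 RPKM against 9.24 and 3.24 RPKM. In both, control 2 was close to matKO 2. Of the 9 higher X-linked genes 8 had allelic reads, and their summed maternal reads were 8.27 and 69.6 RPM in controls and 110 and 113 in matKO, with paternal reads of 18.3 and 19.1 against 58.9 and 52.5. Wbp5 gave 3.87 and 52.5 RPM of the maternal sums in controls and 38.8 and 68.3 RPM in matKO. Tsix, also among the 8, gave 0 and 2.47 RPM against 6.01 and 6.07 RPM.

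The promoter sequences of 4 of these X-linked genes are shown because Tceal8 and Wbp5 were higher and Rlim and Hmgn5 lower in both matKO libraries. Each runs 5′ to 3′ from 250 bases before to 50 bases after the annotated start, from RefSeq on GRCm38.p6, with every CG dinucleotide in capitals. Wbp5 is Tceal9 in RefSeq. Tceal8 lies on the minus strand at chrX:136172202-136172501, Wbp5 on the plus strand at chrX:136244830-136245129, Rlim on the minus strand at chrX:103981236-103981535 and Hmgn5 on the minus strand at chrX:109013331-109013630.
Tceal8: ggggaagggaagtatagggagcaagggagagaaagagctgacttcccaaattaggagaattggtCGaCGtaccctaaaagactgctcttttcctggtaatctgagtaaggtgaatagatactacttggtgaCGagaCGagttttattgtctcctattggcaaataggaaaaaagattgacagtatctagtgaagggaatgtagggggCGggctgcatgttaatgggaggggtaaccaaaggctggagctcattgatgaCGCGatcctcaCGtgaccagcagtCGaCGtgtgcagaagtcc
Wbp5: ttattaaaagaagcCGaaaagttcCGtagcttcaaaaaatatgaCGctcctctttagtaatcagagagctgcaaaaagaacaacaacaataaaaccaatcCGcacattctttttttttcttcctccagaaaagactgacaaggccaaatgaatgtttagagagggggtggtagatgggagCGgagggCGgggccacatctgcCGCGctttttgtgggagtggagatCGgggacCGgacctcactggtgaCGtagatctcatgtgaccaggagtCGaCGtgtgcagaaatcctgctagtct
Rlim: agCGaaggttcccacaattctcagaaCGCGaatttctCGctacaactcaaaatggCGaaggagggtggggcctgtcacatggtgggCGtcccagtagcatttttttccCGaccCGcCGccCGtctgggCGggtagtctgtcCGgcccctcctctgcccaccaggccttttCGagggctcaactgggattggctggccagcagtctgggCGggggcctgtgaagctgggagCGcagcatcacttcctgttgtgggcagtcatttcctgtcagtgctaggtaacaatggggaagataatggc
Hmgn5: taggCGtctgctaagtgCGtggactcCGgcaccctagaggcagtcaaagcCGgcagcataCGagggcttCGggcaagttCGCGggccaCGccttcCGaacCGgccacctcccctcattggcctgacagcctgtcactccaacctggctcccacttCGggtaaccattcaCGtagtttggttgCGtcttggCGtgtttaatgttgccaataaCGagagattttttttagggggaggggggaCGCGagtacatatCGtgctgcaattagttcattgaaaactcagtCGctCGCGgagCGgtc
Tceal8 held 10 CG dinucleotides and Wbp5 13, Rlim held 15 and Hmgn5 23. The median was 21 over the 8317 tested genes with a matched promoter and 14 over the 308 X-linked ones. For the 81 genes as a set only 59 had a matched promoter (72.8%), so a comparison of promoters over the set would be void and none was made. For the 98 X-linked genes with lower, non-overlapping libraries 85 had one, with a median of 14 CG dinucleotides, the same as all X-linked genes.

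Away from the X, Cox7b2, a paralogue of a cytochrome c oxidase subunit, had the smallest p among protein-coding genes. It had 25.5 and 16.9 RPKM in controls and 121 and 106 RPKM in matKO. The groups were well separated, with a difference of 2.39 ± 0.35 (SE, limma unadjusted p = 0.000607). Both parental copies had more reads. Maternal Cox7b2 reads numbered 8 and 11 in controls and 144 and 182 in matKO, and paternal reads 137 and 99 in controls and 468 and 513 in matKO. The maternal percentage was 5.52% (95% Wilson interval 2.82 to 10.5) and 10% (5.68 to 17.02) in controls and 23.5% (20.3 to 27.05) and 26.2% (23.1 to 29.6) in matKO, and the edgeR adjusted p of the ratio was 0.404.

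C430002E04Rik, a candidate for H3K27me3-dependent imprinting in the lists used, had 0.0772 and 3.14 RPKM in controls and 8.72 and 15.5 RPKM in matKO. The controls differed widely, but both matKO libraries were above both, with a difference of 2.58 ± 0.69 (SE, limma unadjusted p = 0.0105), or 1.61 without control 1. Its reads were mostly maternal wherever the gene was well covered (82 of 86 in control 2, 171 of 187 in matKO 1 and 454 of 467 in matKO 2). Control 1 had 5 reads, all paternal. The reads of control 2 thus did not show the silent maternal copy described above for such imprints. In ExE it had 1.98 ± 0.684 RPKM (SD, n = 4) in controls and 5.58 ± 0.996 RPKM (SD, n = 9) in matKO, without overlap and with a limma adjusted p of 0.0145. Without control female 1 or control male 1 that adjusted p was 0.0876 or 0.202.

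2 placental genes expressed in trophoblast were also higher. Prl3b1, a placental lactogen, had 205 and 133 RPKM in controls and 391 and 506 RPKM in matKO, a difference of 1.42 ± 0.36 (SE, limma unadjusted p = 0.0081). Cts6, a cathepsin of the placental cluster, had 1.62 and 3.36 RPKM in controls and 9.61 and 7.49 RPKM in matKO. In both genes the groups did not overlap. The trophectoderm list did not share this direction. Of its 28 tested genes 20 had a lower mean in matKO and 1 had non-overlapping libraries in each direction (3.57% each way, against 8.81% of all genes lower and 10.3% higher). The higher one was Gcm1, a syncytiotrophoblast factor, at 0.456 and 0.805 RPKM against 1.72 and 1.40 RPKM. The list median was -0.29, but the low values were shared by control 1. Krt8, a keratin of the outer cells, had 6.44 and 56.1 RPKM in controls and 9.46 and 11.2 RPKM in matKO, and Gata3, a trophectoderm factor, had 9.77 and 62.6 RPKM against 9.90 and 26.4 RPKM. In both genes control 2 was highest and control 1 lowest. Cdx2, which specifies trophectoderm, had 1.44 and 4.55 RPKM against 1.66 and 2.05 RPKM.

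2 small spliceosomal RNAs had the smallest p of all genes. Rnu11 was listed at 0 in both controls and at 22.2 and 14.1 RPKM in matKO (limma adjusted p = 0.296), and Rnu12 at 19.9 and 9.53 RPKM in controls and at 0 in both matKO libraries (adjusted p = 0.625). Every cell uses these RNAs, so a value of 0 here says only that the gene is listed at 0, and no fold is given.

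**Figure D4:**
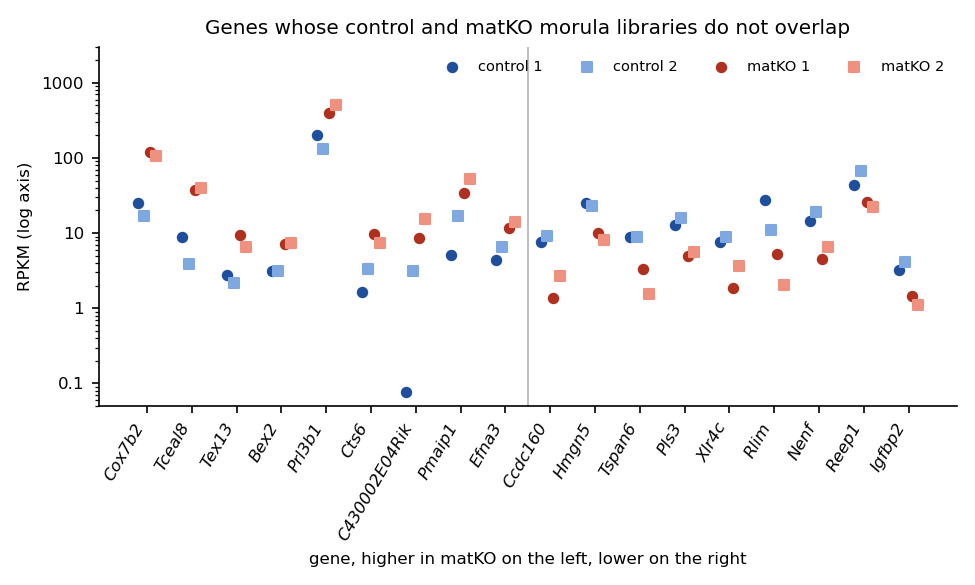
RPKM (log axis) in each library for 18 genes, 9 higher and 9 lower in matKO, whose control and matKO libraries do not overlap. Tceal8 stands at 8.75 and 3.93 RPKM in controls against 37.9 and 39.4 RPKM in matKO, and Rlim at 27.2 and 10.9 RPKM against 5.32 and 2.02 RPKM.

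Of the 53 autosomal genes in the set 36 were higher and 17 lower in matKO. Among the lower ones, Nenf, a secreted neurotrophic factor, had 14.6 and 18.9 RPKM in controls and 4.54 and 6.55 RPKM in matKO, a difference of -1.45 ± 0.33 (SE, limma unadjusted p = 0.00572). Reep1, which shapes the endoplasmic reticulum, had 44.3 and 66.6 RPKM against 25.8 and 22.4 RPKM. Igfbp2, which binds insulin-like growth factors, had 3.24 and 4.08 RPKM against 1.47 and 1.12 RPKM. In all 3 genes both matKO libraries lay below both controls.

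p53 is the transcription factor that answers DNA damage and other stress with arrest or cell death. Of 29 tested targets 27 had a higher mean in matKO, 12 had non-overlapping higher libraries (41.4%, against 10.3% of all genes) and 1 had lower ones, with a median of 0.58 beside 0.02 over all genes. Per library the list median deviated by -0.59 and -0.03 log2 units in the controls and by 0.01 and 0.48 in matKO, so control 2 and matKO 1 were nearly equal. Of the 29 targets, 27 were higher in matKO 1 than in control 1 (5054 of 9982 autosomal genes). In matKO 2 against control 2, 28 were higher (5519 of 9982 autosomal genes). Without control 1 the median difference was 0.29, without control 2 it was 0.80, without matKO 1 0.84 and without matKO 2 0.36, and the 12 became 17, 23, 23 and 16.

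Pmaip1 (Noxa), which promotes cell death, had 5.04 and 16.8 RPKM in controls and 33.8 and 52.3 RPKM in matKO. Both matKO values were above both controls, with a difference of 2.05 ± 0.58 (SE, limma unadjusted p = 0.0137), or 1.27 without control 1. Its maternal reads numbered 32 and 430 in controls and 604 and 1497 in matKO, and its paternal reads 90 and 155 in controls and 82 and 318 in matKO, or 8.27 and 96.5 maternal RPM against 182 and 293 RPM. Plk2, a stress-induced kinase, had 17.9 and 40.3 RPKM in controls and 58.3 and 73.9 RPKM in matKO. Cdkn1a (p21), which halts the cell cycle, had 174 and 190 RPKM in controls and 284 and 314 RPKM in matKO, a difference of 0.71 ± 0.29 (SE, limma unadjusted p = 0.0532). The controls of Cdkn1a were close together, unlike those of Plk2 and Pmaip1. Mdm2, which degrades p53, had 38.5 and 61.5 RPKM against 74.4 and 87.7 RPKM, and Ccng1, a cyclin, 90.03 and 184 RPKM against 222 and 292 RPKM. Fas, a death receptor, had 1.06 and 16.1 RPKM against 8.24 and 42.4 RPKM, and there control 2 was above matKO 1. The member with non-overlapping lower libraries was the kinase Plk3, at 4.21 and 3.58 RPKM in controls and 2.105 and 1.21 RPKM in matKO. Mdm2, Ccng1 and Fas were chosen after their values were seen. In ExE, Mdm2 had 30.0 ± 4.91 RPKM (SD, n = 4) in controls and 46.0 ± 6.37 RPKM (SD, n = 9) in matKO without overlap, as in 1.55% of genes in that direction (limma adjusted p = 0.102), and Cdkn1a had 2.597 ± 1.22 RPKM and 5.61 ± 1.91 RPKM (adjusted p = 0.147). The other named targets overlapped there or were near 0. Ccng1 had 29.9 ± 9.08 RPKM and 46.4 ± 10.8 RPKM, and Pmaip1 had 4.04 ± 0.964 RPKM and 5.02 ± 2.73 RPKM. Plk2 was lower in matKO, at 2.38 ± 0.542 RPKM and 1.76 ± 1.57 RPKM, and Fas had mean levels of 0.017 and 0.0139 RPKM. Plk3 was not compared in ExE, and the list was not counted there.

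**Figure D5:**
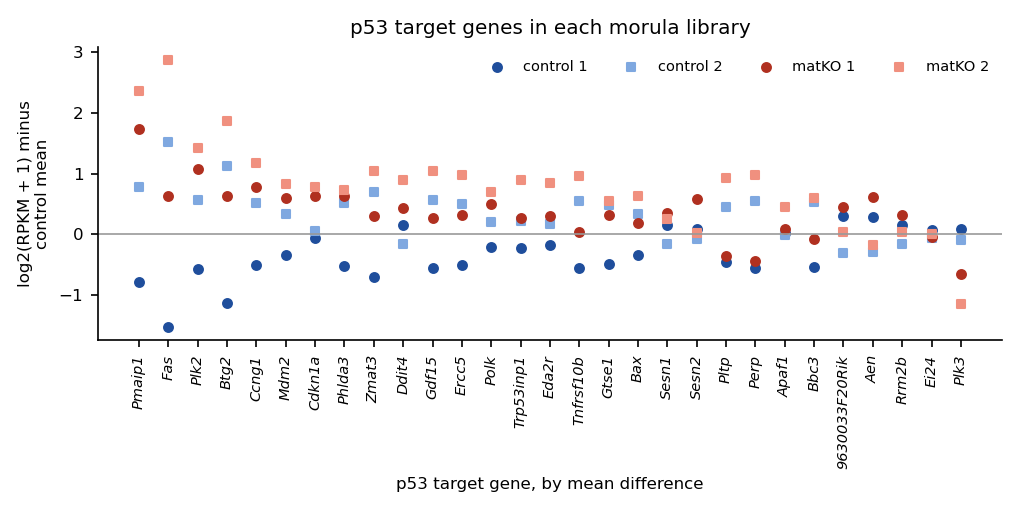
Log2(RPKM + 1) of each of 29 p53 targets minus the mean of the 2 controls (vertical axis), genes ordered by mean difference, with a point per library. Control 1 is lowest in most genes, control 2 and matKO 1 are often close, and matKO 2 is highest in most.

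Among genes with H3K27me3-dependent imprints, all 5 tested had a higher mean total level in matKO, with a median of 0.55, and in 3 the libraries did not overlap (60%, against 10.3% of all genes). Gab1, a signalling adaptor, had 8.25 and 10.8 RPKM in controls and 15.3 and 20.5 RPKM in matKO, a difference of 0.84 ± 0.33 (SE, limma unadjusted p = 0.0466). Sfmbt2, a Polycomb-related factor, had 2.25 and 4.10 RPKM against 5.89 and 4.59 RPKM, and Smoc1, an extracellular matrix protein, 1.15 and 1.02 RPKM against 2.24 and 1.88 RPKM. Phf17, at 9.84 and 15.3 RPKM against 14.6 and 19.2 RPKM, overlapped. Slc38a4 also overlapped, at 8.81 and 25.5 RPKM against 8.51 and 27.5 RPKM, and counts among the 5 at a difference of 0.03. Of the 20 tested candidates 15 had a higher mean, 5 had non-overlapping higher libraries (25%, against 10.3% of all genes) and none had lower ones, with a median of 0.27. Bbx, an HMG-box factor among the candidates, had 15.97 and 14.9 RPKM in controls and 25.4 and 33.5 RPKM in matKO. The maternal shares of Gab1 and Bbx were the 2 allelic calls in morulae (edgeR adjusted p = 0.00673 and 0.0102). There were 14 calls with DESeq2, 123 without control 1, 51 without control 2 and 0 without either matKO library, where 239 and 215 genes had an unadjusted edgeR p under 0.05.

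Of 100 listed developmental regulators that PRC2 silences in many cell types, 89 were under the filter. Of the 100, which include homeobox and other lineage factors, 10 and 9 reached 1 RPKM in the controls and 11 and 10 in matKO. No gene of the list reached 1 RPKM in both matKO libraries and in neither control. Of the 11 tested, 9 had a lower mean in matKO and 1 had non-overlapping lower libraries (9.09%, near the 8.81% of all genes). Hand1, a trophoblast factor, had 27.2 and 6.18 RPKM in controls and 11.4 and 6.06 RPKM in matKO, and Pax6, an eye and brain factor, had 10.6 and 0.794 RPKM against 2.06 and 1.16 RPKM. In both, control 1 alone was high.

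Of 38 tested histone cluster genes 30 had a higher mean in matKO, 11 had non-overlapping higher libraries (28.9%, against 10.3% of all genes) and none had lower ones, with a median of 0.24. Hist1h2bp, a core histone gene, had 0.580 and 0.417 RPKM in controls and 1.69 and 1.47 RPKM in matKO, and Hist1h4c had 11.4 and 5.29 RPKM against 12.4 and 18.5 RPKM. Histone genes are near-identical copies, so the split of reads between single members is uncertain. Summed over the 67 listed genes, levels were 774 and 427 RPKM in controls and 722 and 631 RPKM in matKO. The sums thus overlapped, with control 1 highest. Of 28 tested genes of cholesterol and fatty acid synthesis 5 had non-overlapping lower libraries (17.9%, against 8.81% of all genes) and 1 had higher ones, with a median of -0.19. Per library the list median deviated by -0.19 and 0.41 log2 units in the controls and by -0.11 and -0.07 in matKO, so control 1 lay below both matKO libraries and control 2 alone was high. Of the 28 genes, 17 were higher in matKO 1 than in control 1, and 24 were lower in matKO 2 than in control 2. Cyp51, a sterol demethylase, had 5.89 and 9.03 RPKM in controls and 4.45 and 4.25 RPKM in matKO, and Sqle, an early enzyme of the pathway, had 30.1 and 37.8 RPKM against 21.0 and 23.9 RPKM. In the glycolysis list the gene of the smallest p was Ldha, lactate dehydrogenase A, with 7.15 and 17.9 RPKM in controls and 23.6 and 36.7 RPKM in matKO. In the signalling list it was Bmp7, a bone morphogenetic protein, with 1.12 and 3.53 RPKM against 4.65 and 8.30 RPKM.

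Pluripotency genes were mixed. Of 28 tested, 3 had non-overlapping higher libraries (10.7%, near the 10.3% of all genes) and 1 lower ones (3.57%), and the median was 0.03. Nanog, which maintains the inner cell mass, had 14.3 and 26.1 RPKM in controls and 25.8 and 34.6 RPKM in matKO, with control 2 above matKO 1. Of 34 tested replication and cell cycle genes 24 had a higher mean, 5 had non-overlapping higher libraries (14.7%, against 10.3% of all genes) and 2 lower ones (5.88%, against 8.81%), and the median was 0.12. Per library that list median deviated by 0.03 and -0.19 log2 units in the controls and by 0.27 and -0.15 in matKO, with control 1 above matKO 2. Cdk4, a cyclin-dependent kinase, had 157 and 186 RPKM in controls and 256 RPKM in each matKO library.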

How the data were processed

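Members, gene lists and tests were chosen with earlier results of these data known. Per the labels' protocols, whole embryos were lysed and made into libraries with low-input cDNA and transposase kits. The submitters' processing notes name HISAT2 2.1.0, Cufflinks 2.2.1 and the mm9 build, and give no step for either tool. The authors deposited RPKM of each gene per library, whole-read counts of each gene per parental allele, and log2 ratios for their lists of changed genes. Depth behind RPKM is unknown. Not used here were 81 columns of other samples or measures. The 2 CUT&RUN samples were left out.

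The limma test (version 3.58.1 under R 4.3.3, with trend) took log2 of RPKM plus a pseudocount of 1, kept genes whose mean was 1 RPKM or more, and adjusted p by Benjamini-Hochberg over all of them. The ExE fit had sex and genotype groups and a contrast averaged over sex. The edgeR 4.0.16 quasi-likelihood test took the allelic counts as deposited, with an allele by group term and each library as a block, where mean reads were 20 or more. DESeq2 1.42.0 was an alternative to it. Fits were first tested on simulated data with independent libraries. The morula limma fit found 4% of genes changed by 1 log2 and 82% of those changed by 2 log2. The allelic edgeR fit found 16% and 66%. Named genes were Eed and PRC2 subunits, H3K27me3 imprints, 15 each way by smallest p with non-overlapping libraries, up to 4 per list, 5 each way of the authors' lists and 4 X-linked genes. Besides those marked as such, Rhox6, Rhox9, Xlr4b, Pir and Gata3 were chosen after their values were seen. Alternatives varied the pseudocount (0.1), filter, scaling, trend, replicate block and libraries kept, and those for the X-linked and p53 results were chosen after seeing the data. Software also included Python 3.11.15 with matplotlib 3.10.9, numpy 2.4.6, pandas 2.3.3 and scipy 1.17.1.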

Additional observations from a re-analysis of the deposited data

Results flagged for a closer look

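Tceal8 in ExE had a matKO female library that lay far below the other females. That library (matKO female 4) had 7.89 RPKM, and the other 3 matKO females had 16.2 to 17.7 RPKM. Over the matKO ExE libraries of both sexes the lowest value was 2.46 RPKM. About 1 in 20 groups would be picked out in this way by chance.

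Bex2 differed in opposite directions in the 2 stages. Both matKO morula libraries lay above both controls (difference 0.999), while all 9 matKO ExE libraries lay below all 4 controls (difference -0.80, 154 ± 4.14 RPKM, SD, n = 4, in controls against 92.4 ± 27.8 RPKM, SD, n = 9, in matKO). The difference between the stages was not tested.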

How the results depend on the processing

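The limma count of 0 in morulae was also 0 with pseudocount 0.1, no filter, a 5 RPKM filter, quantile normalization, median scaling and no trend, and 1 to 16 with a library left out. The replicate block gave 164 calls in total levels (36 of the 62 named genes tested) and 43 allelic calls. Same-numbered libraries correlated after removal of group means (r = 0.702), but with 2 pairs and no label of a shared batch the numbers are not taken as pairs. The allelic calls were 14 with DESeq2, 4 at a mean of at least 1 read, and 0 to 123 with a library left out. In ExE the 5 calls became 10 with pseudocount 0.1, 38 with no filter, 11 at 5 RPKM, 13 with quantile and 15 with median scaling, and 3 to 17 with a library left out.

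The 81 genes became 213 with pseudocount 0.1, 46 at 5 RPKM, and 220 to 825 with a library left out. The 28 X-linked genes became 51, 14, and 39 to 88 under the same settings, and the X-linked median ran from -0.44 to 0.0056 over the libraries left out. The p53 median was 0.49 with quantile normalization and 0.29 to 0.84 with a library left out, and the 12 non-overlapping targets became 16 to 23. Of 661 alternative values for the named genes in morulae 13 changed sign, each with a library left out. Over the libraries left out the differences ran from -0.33 to 0.58 for Eed, -0.58 to 0.21 for Ezh2, -0.39 to 0.25 for Suz12, -2.34 to 0.60 for Krt8, -1.88 to 0.68 for Gata3, -0.96 to 0.22 for Cdx2, -1.59 to 0.38 for Hand1, -2.17 to 0.52 for Pax6 and -0.77 to 1.54 for Bex1. The allelic log2 ratio of C430002E04Rik ran from -0.0096 to 9.74. The causes were not tested.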
